A study of Mus musculus with 6 samples.

Results

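Induced myogenic progenitor cells (iMPCs), muscle progenitors obtained by reprogramming mouse fibroblasts, were compared with quiescent satellite cells (QSC), the resting stem cells that sit on the fibres of adult skeletal muscle. The comparison rests on 4 of the 6 RNA-seq libraries of the study. The iMPCs carried a Pax7 reporter, a green fluorescent protein sent to the nucleus. They were sorted into a reporter-positive and a reporter-negative fraction, with 1 library each. The QSC libraries are titled QSC-1 and QSC-3 and are called mouse 1 and mouse 3 here. Their titles do not say whether each came from a single animal. The remaining libraries, activated satellite cells (ASC) and mouse embryonic fibroblasts (MEF), entered the scaling and the estimate of spread and serve as reference levels. The ASC library is titled ASCmyo-Pax7-plus-p1, so it carries a Pax7-positive label. The labels give neither strain nor age of the mice, nor how the QSC were isolated.

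Per the labels' protocols, the medium of expanded iMPCs held 5 µM forskolin, an activator of adenylyl cyclase, 5 µM RepSox, a blocker of the TGF-beta type I receptor kinase, and 3 µM of an inhibitor of GSK3, the kinase that marks beta-catenin for destruction. It also held serum and basic FGF, and no doxycycline. The same protocol text is attached to every sample, so the medium of the ASC and MEF libraries is not given. Embryonic and tail-tip fibroblasts are both named as starting cells, and which of them gave the sorted cells is not stated. The fractions hold differently sorted cells and are not replicates of each other. No culture without the small molecules and no freshly isolated iMPC was among the libraries compared, so growth in culture, the medium, the reprogramming and the cell of origin cannot be told apart here.

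A gene was counted as higher in iMPCs when each fraction exceeded each QSC mouse by at least 4-fold and both fractions had at least 5 CPM, and as lower when the reverse held. CPM express the counts of a gene relative to the total of its library, after TMM scaling, which sets libraries to a common level of their middle genes. The smallest of the 4 differences between a fraction and a mouse, on log2 CPM with a prior count of 2, is the measure the rule uses, and it is called the smallest difference below. Beside it stands edgeR's quasi-likelihood test of the mean of the fractions against QSC, with Benjamini-Hochberg adjustment over 17116 genes and a threshold of 0.05. "Rose" and "fell" are used for genes that passed this test, and log2 differences with an SE are its estimates. The test reports no SE, so each was taken as the size of the difference divided by the square root of the F statistic. QSC is the only group with more than 1 library. Each lone library is therefore assumed to vary as much as the mice do, and the SEs and p-values carry the sex difference between those mice. The rule and the test read the same counts, so neither is evidence for the other. Values are given for the Pax7-positive and then the Pax7-negative fraction, and for QSC of mouse 1 and then mouse 3.

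Satellite cells are kept in place by Pax7 and by signals from the muscle fibre, among them Notch, calcitonin receptor and collagen signals, and they divide rarely. After injury they leave this state, switch on Myod1, divide, and then either differentiate under Myog into fusing myocytes or return to rest. Isolating them from muscle by enzymes and sorting is known to switch on immediate early and stress genes within the time of the procedure. Cultured progenitors divide, and fetal muscle progenitors are known for high levels of imprinted growth genes such as Igf2 and H19.

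The libraries held 20859611 to 29279686 counts over genes, and 18309 to 19545 genes had at least 1 count. TMM factors were 0.717 and 0.763 for QSC and 1.18 and 1.21 for the iMPC fractions. The median log2 difference of all genes was 0.14 with TMM and 0.78 when libraries were scaled by their size only. The difference in composition was visible in the lists below: 16 of the 29 genes of the heat shock and chaperone list were lower in iMPCs, and the summed level of that list was 156902 and 175055 CPM in QSC. In bulk RNA fewer cells of a type and less RNA per cell cannot be told apart. The QSC mice were not alike. Xist was at 0.0954 and 530.1 CPM and the Y-linked Ddx3y at 455 and 0.226 CPM, the pattern of a male and a female mouse. Between the mice, 290 genes (1.69%) differed 4-fold or more with the higher level in mouse 1, and 125 (0.73%) with the higher level in mouse 3. Markers of endothelial and red blood cells and genes of mitosis were among those higher in mouse 1. Where leaving out 1 library moved the count of a list by over 1.5 times, the count without that library is given beside it.

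The sort label was checked against Pax7 itself. Pax7 was at 37.8 CPM in the reporter-positive and 6.25 CPM in the reporter-negative fraction, with 19.8 CPM in ASC and 0 in MEF. The order of the fractions was that of their labels. Desmin, an intermediate filament of muscle cells, was at 1999.9 and 1470.3 CPM in the fractions, 1747 and 3147 CPM in QSC and 54.6 CPM in MEF, so both fractions carried a muscle transcript far above the fibroblast library.

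Of 17116 genes tested, 839 (4.9%) were higher and 840 (4.91%) lower in both iMPC fractions than in both QSC mice. The genes that were lower took 35.4% and 38.1% of all counts in the QSC libraries and 3.52% and 4.25% in the iMPC fractions. Those that were higher took 0.509% and 0.405% of QSC counts and 9.48% and 10.2% of iMPC counts. At 8-fold in every pair 354 genes were higher and 438 lower, and at 64-fold 39 and 49. In edgeR's test 2629 genes (15.4%) rose and 2495 (14.6%) fell. All 839 higher genes and 836 of the 840 lower genes were among these. The counts of each list below are to be read against these shares of all genes tested. Scaling by library size alone turned the split to 1693 higher against 498 lower by the rule, and to 3216 up against 1063 down in the test, so all directions here are relative to the TMM scale. Without mouse 1 the rule gave 1370 higher and 1310 lower genes, and without the Pax7-positive library 1437 and 962. Without the Pax7-negative library it gave 1261 higher and 1227 lower genes. The test called 1968 genes up and 1126 down without the Pax7-positive library.

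The threshold fell in a dense range of values. Trp53inp1, just inside the rule among higher genes, was at 66.7 and 58.7 CPM in the fractions against 14.6 and 14.5 CPM in QSC. Isyna1, just outside it, was at 94.2 and 128 CPM against 23.5 and 17.1 CPM. Among lower genes Atl2 lay just inside, at 63.7 and 47.4 CPM in the fractions against 358 and 255 CPM in QSC. Crebrf, just outside, was at 2.86 and 6.99 CPM against 28.2 and 60.4 CPM.

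**Figure D1:**
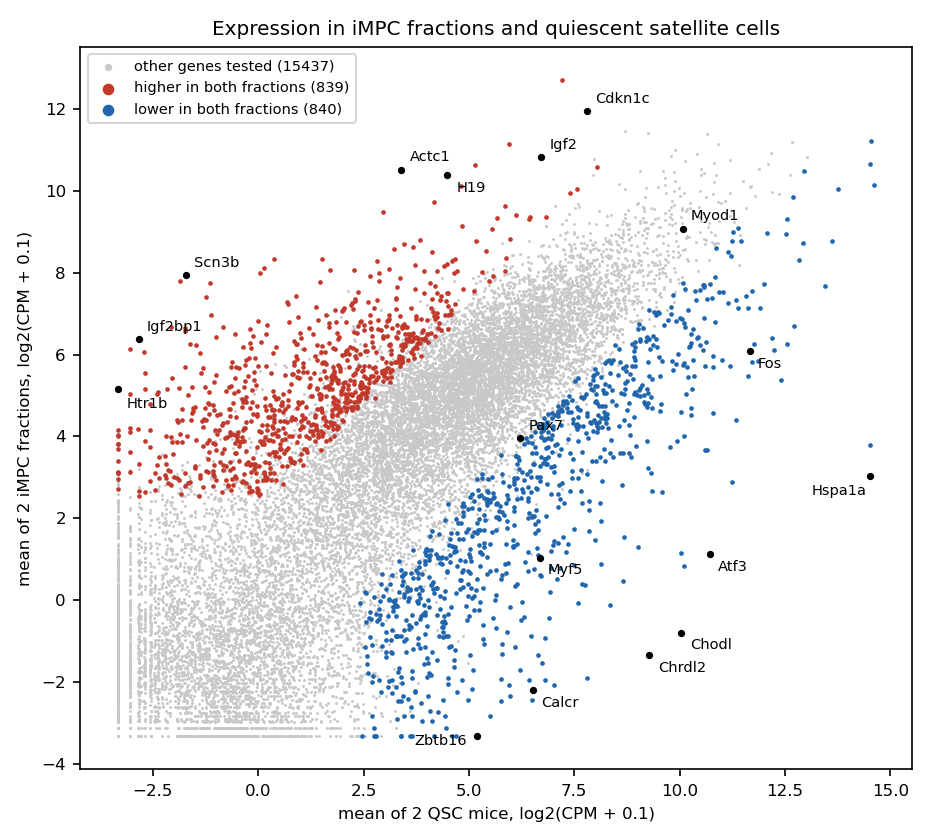
Mean level in the 2 iMPC fractions (vertical) against mean level in the 2 QSC mice (horizontal), both as log2(CPM + 0.1), for 17116 genes. Red points are the 839 genes higher and blue points the 840 genes lower in both fractions than in both mice; black points carry gene names, and Myod1 and Pax7 lie among the grey genes that the rule did not take.

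The genes with the largest smallest differences upward were mostly at the floor in QSC. Igf2bp1, an RNA-binding protein of fetal tissue that binds Igf2 mRNA, was at 89.5 and 75.9 CPM in the fractions against 0.0954 and 0 CPM in QSC. That is 2 reads in mouse 1 and none in mouse 3, a ratio of 1786 (95% counting interval 494 to 14750), and edgeR's adjusted p was 1.24e-06. Its relative Igf2bp3 was at 81.6 and 53.6 CPM in the fractions against 0 and 0.136 CPM in QSC, with a ratio of 976 (95% counting interval 334 to 4733). Tnfsf11, the RANK ligand of bone and immune cells, was at 54.4 and 89.7 CPM in the fractions against 0.0477 and 0 CPM in QSC, a ratio of 3086 (95% counting interval 554 to 121900). In each of these genes the QSC libraries together held 3 reads or fewer and each fraction held at least 1586. The genes were picked for their large smallest differences, so the lack of overlap follows from the choice. The intervals and p-values make no allowance for it.

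Further genes of this kind include some best known from nerve cells. Scn3b, a beta subunit of voltage-gated sodium channels, was at 415 and 145 CPM in the fractions against 0.381 and 0.0904 CPM in QSC and rose by 10.01 ± 0.81 (SE) on the log2 scale (edgeR adjusted p 9.20e-07). Sema3e, a secreted guidance cue for axons and vessels, was at 91.5 and 115 CPM in the fractions against 0.143 and 0.136 CPM in QSC. Htr1b, a serotonin receptor, had no read in either mouse and 47.3 and 26.5 CPM in the fractions, which is at least 534-fold higher against 3 counts summed over QSC. Ptprn, a membrane protein of dense-core vesicles, was at 121 and 237 CPM in the fractions against 0.381 and 0.271 CPM in QSC. Nrk, a kinase of embryonic muscle and placenta, was at 383 and 129 CPM in the fractions against 0.429 and 0.0452 CPM in QSC. Of these 5 genes Sema3e and Ptprn were higher in ASC than in at least 1 fraction, at 336 and 145 CPM, and Htr1b and Nrk were lower there than in both, at 9.26 and 3.88 CPM. Fam220a, Tram1l1, Tfap2c and Ptprv also had no QSC read and were at least 255-fold, 229.8-fold, 200-fold and 238-fold higher.

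Downward, the list was led by Chodl, a C-type lectin of the membrane, at 0.418 and 0.54 CPM in the fractions against 884 and 1261 CPM in QSC. It fell by 11.12 ± 0.79 (SE) on the log2 scale (edgeR adjusted p 6.20e-07), and its level was also near 0 in ASC (0.689 CPM) and MEF (3.48 CPM). Zbtb16, the zinc-finger repressor PLZF, had no read in either fraction and 35.1 and 38 CPM in QSC, at least 739.9-fold lower in iMPCs. Chrdl2, a secreted antagonist of bone morphogenetic proteins, was at 0.0643 and 0.844 CPM in the fractions against 604 and 643 CPM in QSC. Asb5, a muscle ankyrin-repeat protein, was at 5.34 and 9.86 CPM in the fractions against 2769.7 and 2095 CPM in QSC, and in ASC it was still at 450.5 CPM. Prkcq, a protein kinase C of T cells and muscle, was at 0.0965 and 0.101 CPM in the fractions against 45.8 and 84.7 CPM in QSC. The small GTPase gene Arl4d was at 0.965 and 2.9 CPM in the fractions against 1575 and 757 CPM in QSC. The mice differed by more than 2-fold in Arl4d.

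The transcription factors that set up the muscle lineage did not move as a block. Pax3, the sister gene of Pax7, was at 0.0643 and 0.203 CPM in the fractions against 20.5 and 55.7 CPM in QSC and fell by 8.31 ± 0.94 (SE) on the log2 scale (edgeR adjusted p 1.06e-05). Myf5, the early myogenic factor, was at 3.57 and 1.05 CPM in the fractions against 84.2 and 124 CPM in QSC and fell by 5.75 ± 0.63 (SE) (edgeR adjusted p 7.74e-06). Both were far below both mice in both fractions. Pax7 at 37.8 and 6.25 CPM in the fractions against 34.5 and 159.7 CPM in QSC overlapped: the Pax7-positive fraction lay between the mice and the Pax7-negative fraction below them. The mean of the fractions fell by 2.66 ± 0.65 (SE) (edgeR adjusted p 0.0058), a call that was lost without the Pax7-negative library (-1.36, edgeR adjusted p 0.227) and by library size alone (-1.99, edgeR adjusted p 0.113). Myod1, the determination factor, was at 719 and 404 CPM in the fractions against 1836 and 629.6 CPM in QSC, within the range of the mice for 1 fraction and below it for the other, and did not pass the test (edgeR adjusted p 0.145). Lbx1, a factor of migrating limb muscle precursors, was at 0.837 and 0.405 CPM in the fractions against 19.3 and 21.5 CPM in QSC and fell by 5.12 ± 0.73 (SE) (edgeR adjusted p 7.66e-05), while the ASC library held it at 40.7 CPM.

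**Figure D2:**
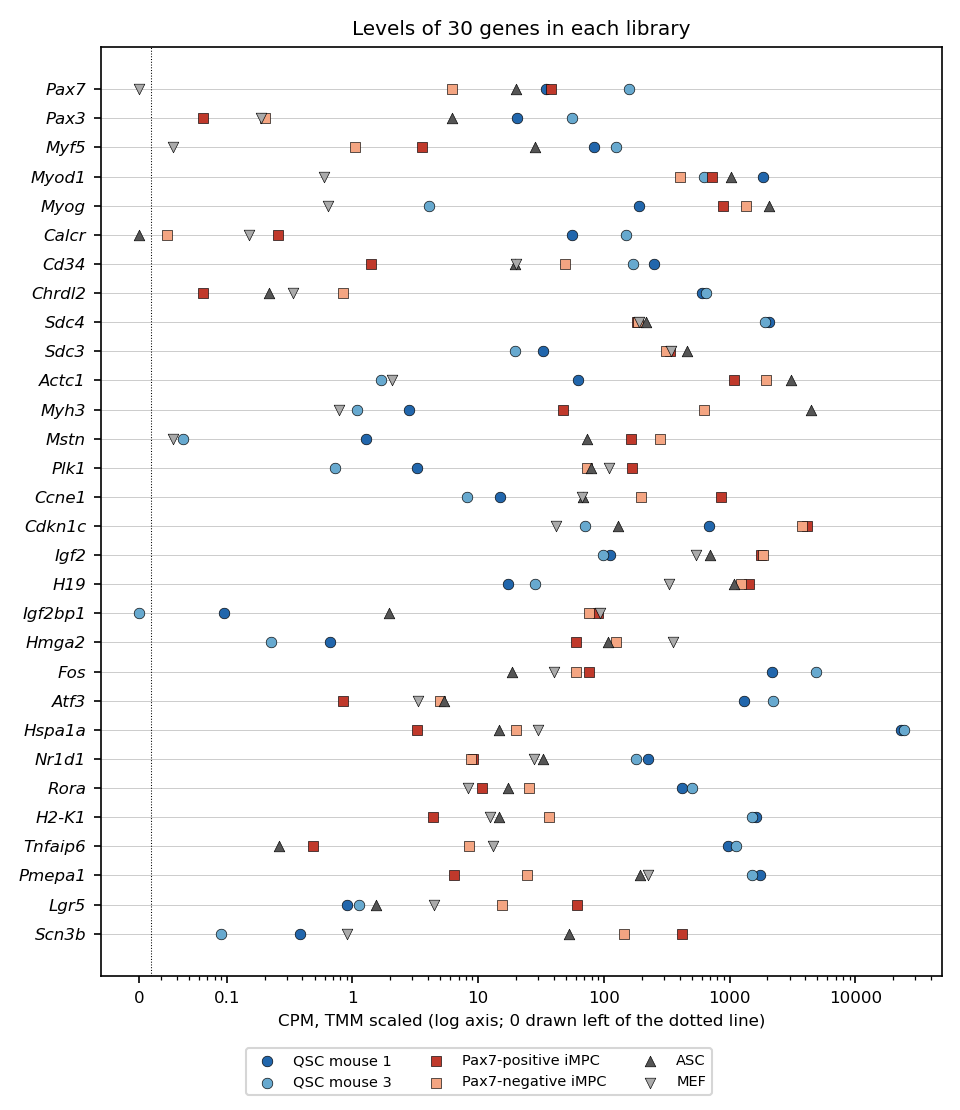
CPM of 30 genes in each of the 6 libraries on a log axis, with values of 0 drawn left of the dotted line. Squares are the iMPC fractions, blue circles the QSC mice and grey triangles the ASC and MEF libraries; for Pax3, Myf5, Calcr, Fos and Hspa1a both squares lie left of both circles, and for Igf2, H19, Hmga2 and Scn3b right of them.

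Of the 24 genes of the satellite cell identity list, 1 was higher and 4 lower by the rule, and in edgeR's test 2 rose and 10 fell; the median difference was -0.77 against 0.14 for all genes tested. Sdc3 and Sdc4, cell surface proteoglycans that both mark satellite cells, went opposite ways. Sdc4 was at 184 and 187 CPM in the fractions against 2048 and 1903 CPM in QSC and fell by 3.41 ± 0.60 (SE) on the log2 scale (edgeR adjusted p 4.63e-04). Sdc3 was at 333 and 309 CPM in the fractions against 32.9 and 19.8 CPM in QSC and rose by 3.61 ± 0.56 (SE) (edgeR adjusted p 1.68e-04). Vcam1, an adhesion molecule used to sort satellite cells, was at 168 and 105 CPM in the fractions against 1032 and 490.04 CPM in QSC and fell by 2.52 ± 0.56 (SE) in the test (edgeR adjusted p 0.00306, and 0.0504 by library size alone), short of the rule. Itga7, an integrin that binds laminin around the fibre, was at 724 and 272 CPM in the fractions against 435 and 238 CPM in QSC, overlapping between the groups. Without the Pax7-positive library the count of lower genes in this list was 8, and without mouse 3 it was 7. Also, 3 were higher without the Pax7-negative library.

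Among 27 genes linked to quiescence 2 were higher and 8 lower by the rule, with 3 rising and 10 falling in the test. Calcr, the calcitonin receptor that holds satellite cells at rest, was at 0.257 and 0.0338 CPM in the fractions against 55.9 and 151 CPM in QSC and fell by 10.01 ± 0.88 (SE) on the log2 scale (edgeR adjusted p 1.42e-06). Its level was 0 in ASC. Bmp6 and Bmp4 are ligands of the bone morphogenetic protein family. Bmp6 was at 0.547 and 1.96 CPM in the fractions against 104 and 144 CPM in QSC. Bmp4 was at 0.354 and 7.26 CPM against 231 and 142 CPM. The metal-binding Mt2 was at 49.3 and 79.5 CPM in the fractions against 1568 and 2019 CPM in QSC. Cd34, a sialomucin of quiescent cells, fell by 4.65 ± 0.58 (SE) (edgeR adjusted p 2.28e-05) but missed the rule because its Pax7-negative level, 49.3 CPM, was far above the Pax7-positive level of 1.42 CPM, with QSC at 249 and 172 CPM. Against the direction of the list, Cdkn1c, the cell cycle inhibitor p57, was at 4143 and 3735 CPM in the fractions against 691 and 71 CPM in QSC and rose by 3.37 ± 0.85 (SE) (edgeR adjusted p 0.00689). Gas1, a growth arrest protein of the cell membrane, was at 1011 and 949 CPM in the fractions against 155 and 181 CPM in QSC and rose by 2.54 ± 0.54 (SE) (edgeR adjusted p 0.00229). Cdkn1c is imprinted, and it also stands in the fetal growth list.

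Genes of commitment, the neuromuscular junction and fusion were mixed, 7 higher and 4 lower of 31 by the rule, and 15 rising and 6 falling in the test. The rule took 14 as higher without the Pax7-positive library and 11 without mouse 1, and 11 higher and 2 lower by library size alone. Myog, which drives terminal differentiation, was at 892 and 1358 CPM in the fractions against 189 and 4.07 CPM in QSC and rose by 3.51 ± 1.04 (SE) on the log2 scale (edgeR adjusted p 0.0172). DESeq2 did not call it (adjusted p 0.186), nor did edgeR with library size alone (adjusted p 0.093). The mice lay far apart in it, and both were below both fractions. Mstn, the myostatin gene that limits muscle growth, was at 164 and 279 CPM in the fractions against 1.29 and 0.0452 CPM in QSC and rose by 8.33 ± 0.96 (SE) (edgeR adjusted p 1.28e-05). Chrng, the fetal subunit of the acetylcholine receptor, was at 111 and 142 CPM in the fractions against 11.9 and 0.678 CPM in QSC. Rbm24, a splicing factor of muscle, was at 385 and 254 CPM in the fractions against 27.9 and 21 CPM in QSC. Gm7325, the fusion peptide myomixer, was at 14.7 and 50.3 CPM in the fractions against 2.15 and 0 CPM in QSC. Tmem8c, the fusion protein myomaker, chosen here after its values were seen, was at 61 and 253 CPM in the fractions against 30.04 and 0.226 CPM in QSC. DESeq2 called neither (adjusted p 0.391 and 0.334).

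The genes that fell in this list included receptors and adhesion molecules of the junction and fibre. Cdh4, a cadherin, was at 0.0643 and 1.55 CPM in the fractions against 31.9 and 50.3 CPM in QSC. Chrnb1, a subunit shared by fetal and adult acetylcholine receptors, was at 58.4 and 36 CPM in the fractions against 433 and 476 CPM in QSC and fell by 3.31 ± 0.53 (SE) on the log2 scale (edgeR adjusted p 2.25e-04), the opposite direction to Chrng. Musk, the receptor kinase that clusters those receptors, was at 24.5 and 29.6 CPM in the fractions against 159.9 and 141 CPM in QSC. Cdkn1a, the inhibitor p21 of the p53 pathway, was at 501 and 523 CPM in the fractions against 2755 and 2181 CPM in QSC and fell by 2.27 ± 0.61 (SE) (edgeR adjusted p 0.00954), which did not hold without the Pax7-positive library (adjusted p 0.0621) or by library size alone (adjusted p 0.062).

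Of 43 sarcomere genes, 41 were tested. By the rule 8 were higher and 2 lower, and 28 rose and 3 fell in the test, with a median difference of 3.27. The median was 1.89 for the Pax7-positive and 4.39 for the Pax7-negative fraction. In the Pax7-negative fraction 25 of them exceeded the other fraction by 4-fold or more. Without the Pax7-positive library 27 sarcomere genes were higher by the rule, and without mouse 1 the number was 20. Actc1, cardiac and fetal actin, was at 1084 and 1966 CPM in the fractions against 62.5 and 1.67 CPM in QSC and rose by 5.51 ± 1.12 (SE) on the log2 scale (edgeR adjusted p 0.00154). Myh3 and Myh8 are the embryonic and perinatal myosin heavy chains. Myh3 was at 47.7 and 629 CPM in the fractions against 2.81 and 1.09 CPM in QSC. Myh8 was at 14.7 and 175 CPM against 0.715 and 0.543 CPM. Smyd1, a methyltransferase of myosin assembly, was at 14.6 and 45.8 CPM in the fractions against 0.238 and 0.407 CPM in QSC. Acta1, skeletal actin, chosen after its values were seen, was at 60.2 and 826 CPM in the fractions against 65.8 and 9.32 CPM in QSC. The Pax7-positive fraction lay between the mice, and the call upward (edgeR adjusted p 0.0187) was lost without the Pax7-negative library (adjusted p 0.602).

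Lower sarcomere genes were 2 of 43 by the rule, near the 4.91% of all genes tested. In the test 3 fell, against 14.6% of all genes tested. The 2 taken by the rule were Cryab and Tpm3. Cryab, a small heat shock protein that also stands in the chaperone list, was at 19 and 102 CPM in the fractions against 3617 and 2766 CPM in QSC. Tpm3, a tropomyosin found in slow fibres and in non-muscle cells, was at 160.3 and 164 CPM in the fractions against 1816 and 997 CPM in QSC and fell by 3.12 ± 0.60 (SE) on the log2 scale (edgeR adjusted p 0.00106). The sum of all sarcomere genes was 3076 and 9009 CPM in the fractions, 6129.7 and 4131 CPM in QSC and 46600.3 CPM in ASC. By this sum the groups overlapped. Cryab and Tpm3 made up most of the QSC sums, so the overlap says little about the other sarcomere genes.

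Genes of cell division were higher in iMPCs, by an amount that depended on the mouse. Of 40 genes of mitosis and the kinetochore, 36 rose and none fell in edgeR's test and 14 were higher by the rule. At an unadjusted p under 0.05 edgeR had 37 up and 1 down, and DESeq2 called 29 up and 1 down, Pttg1, which encodes securin. The median difference was 2.33 against mouse 1 and 6.19 against mouse 3. In mouse 1, 30 of the 40 genes exceeded mouse 3 by 4-fold or more. Without mouse 1 the rule took 38 of them, and without the Pax7-negative library 35. Plk1, a kinase of mitotic entry and spindle poles, was at 169 and 73.4 CPM in the fractions against 3.24 and 0.724 CPM in QSC and rose by 5.81 ± 0.72 (SE) on the log2 scale (edgeR adjusted p 2.37e-05). Ccnb1, the cyclin of mitotic entry, was at 338 and 142 CPM in the fractions against 11.9 and 0.543 CPM in QSC. Kif2c, a kinesin that takes microtubules apart, was at 81.6 and 35.1 CPM in the fractions against 3.29 and 0.0904 CPM in QSC. All 3 were more than 2-fold higher in the Pax7-positive than in the Pax7-negative fraction and lowest in mouse 3. Mki67, the proliferation marker Ki-67, was at 94.7 and 40.1 CPM in the fractions against 38.4 and 0.317 CPM in QSC and did not pass the test (edgeR adjusted p 0.222). The Pax7-negative fraction and mouse 1 had nearly the same level. Top2a, chosen after its values were seen, was at 294 and 121 CPM in the fractions against 42.1 and 0.362 CPM in QSC. edgeR called it (adjusted p 0.0345) and DESeq2 did not (adjusted p 0.305).

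Promoters of mitotic genes are known for a CHR element, TTTGAA, read by repressor and activator complexes of the cell cycle, often near a CCAAT box. In RefSeq promoters of build GRCm38.p6, in the 250 bases before the start site on either strand, TTTGAA occurred in 11 of 34 mitosis genes with a promoter (32.4%), against 10.5% of 11517 tested genes and 16.3% of 27025 promoters in the table. CCAAT occurred in 25 of 34 (73.5%), against 35.8% of tested genes and 34.5% of all promoters. Among all genes higher in both fractions TTTGAA occurred in 63 of 601 promoters (10.5%) and CCAAT in 251 (41.8%). CCAAT was also frequent in the DNA replication list (60.6%) and in the clock list (66.7%), which was lower in iMPCs. A match describes the letters of the window and is no evidence of binding. The windows of Cdk1, the mitotic kinase (chr10:69352913-69353162, minus strand), and Ect2, an exchange factor of cell cleavage (chr3:27153879-27154128, minus strand), are shown with TTTGAA on the printed strand in capitals.
Cdk1: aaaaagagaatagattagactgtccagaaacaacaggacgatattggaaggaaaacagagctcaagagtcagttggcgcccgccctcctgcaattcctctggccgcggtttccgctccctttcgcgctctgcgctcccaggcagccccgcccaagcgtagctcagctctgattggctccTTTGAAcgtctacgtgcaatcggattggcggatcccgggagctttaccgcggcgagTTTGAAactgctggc
Ect2: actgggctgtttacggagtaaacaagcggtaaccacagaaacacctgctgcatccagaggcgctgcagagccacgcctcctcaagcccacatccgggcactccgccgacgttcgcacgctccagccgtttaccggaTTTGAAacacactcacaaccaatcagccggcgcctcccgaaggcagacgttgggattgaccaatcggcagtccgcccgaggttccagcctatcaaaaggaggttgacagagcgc
Cdk1, named here after its values were seen, was at 205 and 91.5 CPM in the fractions against 14.5 and 1.45 CPM in QSC and rose by 4.10 ± 0.79 (SE) on the log2 scale (edgeR adjusted p 0.00105), and Ect2 was at 97.5 and 36.6 CPM in the fractions against 3.72 and 0.136 CPM in QSC and rose by 4.96 ± 0.91 (SE) (edgeR adjusted p 7.17e-04). For both, mouse 3 was the lowest library and the Pax7-positive fraction the highest.

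Of 40 DNA replication genes 22 rose and none fell in edgeR's test (26 and 0 at an unadjusted p under 0.05, 21 and 0 in DESeq2), but 2 were higher by the rule. The rule took 19 without mouse 1 and 20 without the Pax7-negative library. Of the 2 taken with all libraries Chaf1a, a histone chaperone of the replication fork, was at 101 and 39.4 CPM in the fractions against 6.06 and 2.49 CPM in QSC. Uhrf1, which passes DNA methylation to the new strand, was at 249.6 and 83.2 CPM in the fractions against 20.3 and 0.226 CPM in QSC. Uhrf1 was called by edgeR (adjusted p 0.0116) and not by DESeq2 (adjusted p 0.184), by edgeR with library size alone (adjusted p 0.0878) or without the Pax7-positive library (adjusted p 0.0809). The summed level of the list was 5013 and 1914 CPM in the fractions and 1569 and 716.4 CPM in QSC.

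Among 33 cyclins, cyclin-dependent kinases and inhibitors, 11 were higher and 5 lower by the rule, and 17 and 2 by library size alone. Ccne1, cyclin E1 of entry into S phase, was at 860.2 and 198 CPM in the fractions against 14.8 and 8.14 CPM in QSC and rose by 5.17 ± 0.61 (SE) on the log2 scale (edgeR adjusted p 1.48e-05). ASC and MEF held 68.6 and 66.9 CPM, below both fractions. Ccng1, a cyclin of the p53 response, was at 664 and 472 CPM in the fractions against 25 and 32.2 CPM in QSC. E2f8, a repressor of E2F targets, was at 56.7 and 55.1 CPM in the fractions against 2.1 and 0.0904 CPM in QSC. Ccnd2, cyclin D2, chosen after its values were seen, was at 155 and 300.3 CPM in the fractions against 23.1 and 12 CPM in QSC. Inhibitors went both ways. Cdkn2a, which encodes p16 and ARF, was at 9.72 and 7.94 CPM in the fractions against 0.191 and 0.0904 CPM in QSC. Its neighbour Cdkn2b (p15), chosen after its values were seen, was at 54.2 and 86.3 CPM in the fractions against 5.77 and 6.01 CPM in QSC; both rose together with Cdkn1c, while Cdkn1a fell. The antiproliferative genes Btg1 and Btg2 and the stress genes Gadd45a and Gadd45b made up the rest of the lower group. Gadd45b was at 9.81 and 17.9 CPM in the fractions against 739 and 1038 CPM in QSC. Btg1 was at 167 and 221 CPM in the fractions against 1684 and 1232 CPM in QSC.

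The fetal growth and imprinted list had the largest share of higher genes by the rule among the 39 lists described here, 16 of 37, with none lower. That order was not kept under 4 of the alternatives. Mitosis genes had the larger share by library size alone (30 of 40, against 19 of 37), without mouse 1 (38 against 19) and without the Pax7-negative library (35 against 17). Sarcomere genes did so without the Pax7-positive library (27 of 43, against 17 of 37). Larger shares than in the fetal growth list were also found for cyclins and inhibitors by library size alone (17 of 33). The same held for DNA replication without the Pax7-negative library (20 of 40) and for fibroblast markers without the Pax7-positive library (16 of 29). Without mouse 1, and also without the Pax7-negative library, 2 fetal growth genes were lower. In the test 20 rose and 3 fell, and the median difference was 2.55. Igf2, the fetal insulin-like growth factor, was at 1779.8 and 1833 CPM in the fractions against 112 and 98.1 CPM in QSC and rose by 4.10 ± 0.62 (SE) on the log2 scale (edgeR adjusted p 1.32e-04). H19, the noncoding RNA that neighbours Igf2 and is expressed from the other parental copy, was at 1430.5 and 1233 CPM in the fractions against 17.3 and 28.2 CPM in QSC and rose by 5.87 ± 0.68 (SE) (edgeR adjusted p 1.27e-05). The smallest difference was 3.99 for Igf2 and 5.45 for H19. Mest, a paternally expressed gene of mesoderm, was at 3427 and 1479 CPM in the fractions against 139.7 and 27.1 CPM in QSC. Nnat, a small membrane protein expressed from the paternal copy, was at 344 and 304 CPM in the fractions against 2.05 and 0.678 CPM in QSC, with 38.7 CPM in ASC and 23.8 CPM in MEF. Hmga2, a chromatin protein of undifferentiated cells, was at 59.8 and 125 CPM in the fractions against 0.668 and 0.226 CPM in QSC and rose by 7.59 ± 0.72 (SE) (edgeR adjusted p 2.40e-06). Dlk1, a membrane protein of fetal muscle, was at 182 and 274 CPM in the fractions against 8.96 and 5.83 CPM in QSC. Peg10, chosen after its values were seen, was at 115 and 108 CPM in the fractions against 2.53 and 6.83 CPM in QSC. The imprinted genes did not all go up. Meg3, the maternally expressed RNA next to Dlk1, also chosen after its values were seen, was at 63 and 173 CPM in the fractions against 267 and 1677 CPM in QSC. It fell by 3.22 ± 0.72 (SE) (edgeR adjusted p 0.00313; 0.0841 by library size alone and 0.0795 without the Pax7-positive library). Mirg of the same cluster and Sgce fell as well.

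Immediate early genes had the largest share of lower genes by the rule among the 39 lists. Of 38 such genes 27 were lower in both fractions by the rule and none higher, 33 fell and none rose in edgeR's test (33 and 0 at an unadjusted p under 0.05 and in DESeq2), and the median difference was -3.87. The counts by the rule were 20 lower by library size alone and 27 to 31 with any 1 library left out. Fos, a subunit of the AP-1 factor, was at 76.4 and 59.9 CPM in the fractions against 2174 and 4831 CPM in QSC and fell by 5.69 ± 0.74 (SE) on the log2 scale (edgeR adjusted p 3.22e-05). Atf3, a stress factor of the same structural class, was at 0.837 and 4.96 CPM in the fractions against 1295 and 2198 CPM in QSC and fell by 9.74 ± 0.79 (SE) (edgeR adjusted p 9.20e-07). Junb, chosen after its values were seen, was at 172 and 256 CPM in the fractions against 4172 and 4048 CPM in QSC. Zfp36, which marks inflammatory mRNAs for decay, was at 47.2 and 67.1 CPM in the fractions against 3481 and 3310.2 CPM in QSC. Nr4a3, an orphan nuclear receptor, had no read in the Pax7-positive fraction, 0.574 CPM in the Pax7-negative fraction and 58.2 and 213 CPM in QSC; its smallest difference was -6.48. Myc, the growth regulator, was at 155 and 127 CPM in the fractions against 4093 and 1754 CPM in QSC and fell by 4.38 ± 0.69 (SE) (edgeR adjusted p 1.75e-04). ASC and MEF lay with the fractions: Fos was at 18.5 and 39.9 CPM and Atf3 at 5.34 and 3.33 CPM there.

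Heat shock genes and chaperones fell over the same libraries, 16 of 29 by the rule and 20 in edgeR's test, none upward, with a median of -2.82. At an unadjusted p under 0.05, and in DESeq2, 21 fell and 0 rose. Hspa1a, the stress-inducible HSP70, was at 3.25 and 20.1 CPM in the fractions against 22959.8 and 24292 CPM in QSC. Its near-identical copy Hspa1b was at 6.6 and 28.7 CPM in the fractions against 21657 and 25750 CPM in QSC; the copies cannot be told apart with certainty by counted reads. Hspb1, HSP27, chosen after its values were seen, was at 104 and 102 CPM in the fractions against 3569 and 12839 CPM in QSC and fell by 6.31 ± 0.89 (SE) on the log2 scale (edgeR adjusted p 6.70e-05). Dnajb1, a co-chaperone of HSP70, was at 75.5 and 77 CPM in the fractions against 4305 and 8344 CPM in QSC. Hspa8, the constitutive HSP70, was at 1706 and 1532 CPM in the fractions against 25149 and 22093 CPM in QSC. Hmox1, haem oxygenase, was at 37.7 and 45.6 CPM in the fractions against 10687 and 2761 CPM in QSC. The whole list summed to 11448 and 9425 CPM in the fractions, 13001 CPM in ASC and 12328 CPM in MEF, against the QSC sums given above. Ubb, a polyubiquitin gene, was at 2295 and 2445 CPM in the fractions against 25292 and 22484 CPM in QSC. Immediate early and heat shock genes are also the known response to tissue dissociation, and its part in these differences was not tested.

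The heat shock element was searched as GAANNTTC, with N for any base, on both strands in the same 250-base windows. It occurred in 6 of 22 promoters of this list (27.3%), against 4.95% of tested genes and 6.78% of all promoters in the table. Among all genes lower in both fractions it occurred in 31 of 577 promoters (5.37%). Promoters of Hspa1a (chr17:34972157-34972406, minus strand) and Hspb1 (chr5:135887669-135887918, plus strand), from RefSeq on GRCm38.p6, are shown with the element in capitals. They are examples from the 6 promoters of the list that hold it.
Hspa1a: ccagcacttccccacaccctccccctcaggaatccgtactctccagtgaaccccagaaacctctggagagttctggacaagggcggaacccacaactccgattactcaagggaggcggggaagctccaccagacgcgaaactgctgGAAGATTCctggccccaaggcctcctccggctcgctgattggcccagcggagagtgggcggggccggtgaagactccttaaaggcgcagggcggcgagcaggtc
Hspb1: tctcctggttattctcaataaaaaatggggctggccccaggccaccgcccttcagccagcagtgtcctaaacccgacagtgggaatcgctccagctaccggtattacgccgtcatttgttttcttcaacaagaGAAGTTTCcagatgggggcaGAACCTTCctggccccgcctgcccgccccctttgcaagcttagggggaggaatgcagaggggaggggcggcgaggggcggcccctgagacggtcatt
The Hspa1a window holds 1 match and the Hspb1 window 2 matches.

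Forskolin raises cAMP, and the CREB family of factors is known to switch on genes with a cAMP response element when cAMP rises. Of 28 genes of this response 26 were tested. By the rule 3 were higher and 9 lower, and 4 rose and 13 fell in the test, with a median of -1.43. Those that fell are also immediate early genes in part. Nr4a2, an orphan nuclear receptor, was at 3.22 and 8.51 CPM in the fractions against 199 and 264 CPM in QSC and fell by 5.47 ± 0.59 (SE) on the log2 scale (edgeR adjusted p 6.91e-06). Fosb was at 2.67 and 1.15 CPM in the fractions against 171 and 467 CPM in QSC. Dusp1, a phosphatase of MAP kinases, was at 57.5 and 81.8 CPM in the fractions against 1691 and 1358 CPM in QSC and fell by 4.47 ± 0.61 (SE) (edgeR adjusted p 5.08e-05). The genes that were higher are components of the pathway. Prkar2b, a regulatory subunit of protein kinase A, was at 116 and 99.7 CPM in the fractions against 11.8 and 10.1 CPM in QSC. Pde4a, a phosphodiesterase that breaks down cAMP, was at 15.1 and 17.7 CPM in the fractions against 2.15 and 2.58 CPM in QSC. Adcy3, an adenylyl cyclase, was at 33.1 and 39.7 CPM in the fractions against 6.72 and 5.29 CPM in QSC. Prkar2b rose by 3.29 ± 0.53 (SE) (edgeR adjusted p 2.30e-04). The part of forskolin in any of these values was not tested, since no iMPC library without it was compared.

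The palindrome TGACGTCA, the full cAMP response element, occurred on both strands in 24 of 577 promoters of lower genes (4.16%), 9 of 601 promoters of higher genes (1.5%) and 2.62% of tested genes. It occurred in 3 of 23 promoters of the cAMP list. The windows of Dusp1 (chr17:26508473-26508722, minus strand) and Btg2 (chr1:134079156-134079405, minus strand), both from RefSeq on GRCm38.p6, are shown with the element in capitals.
Dusp1: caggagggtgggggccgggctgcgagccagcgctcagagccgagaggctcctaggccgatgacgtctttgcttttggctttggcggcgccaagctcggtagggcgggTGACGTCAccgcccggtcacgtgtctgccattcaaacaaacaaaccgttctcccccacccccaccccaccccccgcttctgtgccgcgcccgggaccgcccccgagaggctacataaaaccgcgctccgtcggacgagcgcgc
Btg2: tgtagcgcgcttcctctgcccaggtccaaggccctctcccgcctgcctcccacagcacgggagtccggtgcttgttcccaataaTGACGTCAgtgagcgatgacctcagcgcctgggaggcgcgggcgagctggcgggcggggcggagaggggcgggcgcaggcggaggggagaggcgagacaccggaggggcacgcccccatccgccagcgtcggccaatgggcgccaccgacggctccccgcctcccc
Both genes were lower in the fractions: Btg2 was at 78.7 and 94.1 CPM in the fractions against 1419 and 1365 CPM in QSC and fell by 4.02 ± 0.59 (SE) on the log2 scale (edgeR adjusted p 9.81e-05).

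Genes of the circadian clock were lower as a list, 8 of 19 by the rule and 14 in edgeR's test with none higher, and a median of -2.58. At an unadjusted p under 0.05, 17 fell and 0 rose, and DESeq2 called 15 down and 0 up. By library size alone the rule took 3 of them, and without mouse 1 it took 12. The list summed to 279.1 and 335.9 CPM in the fractions, 566.5 CPM in ASC and 352.4 CPM in MEF, against 1862 and 2324 CPM in QSC. Nr1d1 (REV-ERB alpha), a repressor of the clock loop, was at 9.17 and 8.71 CPM in the fractions against 226 and 181 CPM in QSC and fell by 4.51 ± 0.56 (SE) on the log2 scale (edgeR adjusted p 2.41e-05). Rora, the activator that competes with it, was at 10.7 and 25.2 CPM in the fractions against 415 and 498 CPM in QSC and fell by 4.80 ± 0.57 (SE) (edgeR adjusted p 1.60e-05). Per2, which closes the feedback loop, was at 2.48 and 3.01 CPM in the fractions against 17.1 and 42.6 CPM in QSC. Npas2, a partner of BMAL1, was at 0.74 and 1.55 CPM in the fractions against 18.1 and 25.7 CPM in QSC. Arntl, which encodes BMAL1, was at 10.5 and 18.9 CPM in the fractions against 89.1 and 73.6 CPM in QSC. Dbp, an output factor, was at 3.8 and 5.67 CPM in the fractions against 18.2 and 44.9 CPM in QSC, and both were chosen after their values were seen. Arntl missed the rule narrowly, with a smallest difference of -1.96, and Dbp, with -1.67, was called by edgeR (adjusted p 0.00543) but not by library size alone (adjusted p 0.0758) or without the Pax7-positive library (adjusted p 0.0594). The labels give no time of day for any sample. The clock E-box CACGTG occurred in 4 of 15 promoters of the list (26.7%), against 8.23% of tested genes.

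Inflammatory genes were lower in iMPCs in 3 lists. Among 40 chemokines, cytokines and NF-kB genes, 39 of them tested, 13 were lower and 2 higher by the rule, and 27 fell and 4 rose in the test. Tnfaip6, a secreted hyaluronan-binding protein, was at 0.483 and 8.48 CPM in the fractions against 968 and 1126 CPM in QSC and fell by 9.01 ± 0.72 (SE) on the log2 scale (edgeR adjusted p 9.20e-07). Rela, a subunit of NF-kB, was at 127 and 109 CPM in the fractions against 1078 and 986 CPM in QSC. Nfkbia, its inhibitor and target, was at 74.8 and 94.5 CPM in the fractions against 1522 and 1227 CPM in QSC, and both were chosen after their values were seen. Cxcl10 and Cxcl16 are chemokines for T cells. Cxcl10 was at 0.579 and 1.28 CPM in the fractions against 56.5 and 26 CPM in QSC. Cxcl16 was at 0.45 and 2.63 CPM against 38.6 and 41.6 CPM. Of the 2 that were higher Tnfaip2 was at 176 and 484 CPM in the fractions against 17.6 and 9.72 CPM in QSC. Ptgs2, the inducible prostaglandin synthase, was at 11 and 124 CPM in the fractions against 2.38 and 2.03 CPM in QSC. In both, the Pax7-negative fraction was the higher. Ccl2, chosen after its values were seen, was at 14.7 and 107 CPM in the fractions against 423 and 101 CPM in QSC, so the Pax7-negative fraction overlapped with mouse 3. Without the Pax7-negative library 22 genes of this list were lower by the rule. The list summed to 1427 and 3319 CPM in the fractions, 1814 CPM in ASC and 3210 CPM in MEF, against 13413 and 8051 CPM in QSC.

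Of 40 interferon and antigen presentation genes, 39 of them tested, 13 were lower by the rule and 26 fell in edgeR's test, none upward, with a median of -2.59. At an unadjusted p under 0.05, 30 fell and 1 rose, and DESeq2 called 25 down and 0 up. The list summed to 510.6 and 1296 CPM in the fractions, 528.1 CPM in ASC and 1270 CPM in MEF, against 9164 and 7654 CPM in QSC. ASC and MEF thus lay with the fractions. Without the Pax7-negative library the rule took 25 as lower and by library size alone 7, and without the Pax7-positive library 1 was higher. H2-K1 and H2-D1 are heavy chains of MHC class I. H2-K1 was at 4.38 and 36.3 CPM in the fractions against 1607 and 1509.8 CPM in QSC. H2-D1 was at 9.62 and 46.5 CPM against 3384 and 1995 CPM. H2-K1 fell by 6.95 ± 0.68 (SE) on the log2 scale (edgeR adjusted p 3.09e-06). B2m, the light chain, chosen after its values were seen, was at 71.2 and 147 CPM in the fractions against 1050.4 and 1193 CPM in QSC and fell by 3.46 ± 0.57 (SE) (edgeR adjusted p 2.74e-04). In all 3 the Pax7-negative fraction was higher than the Pax7-positive, and both were far below QSC. Genes of MHC class II, known from antigen-presenting cells, were also low. Cd74 was at 0.0965 and 0.0675 CPM in the fractions against 45.8 and 63.7 CPM in QSC and H2-Aa at 0 and 0.0675 CPM in the fractions against 11.9 and 18.4 CPM in QSC.

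The complement and coagulation list of 37 genes, 35 of them tested, had 9 lower and 1 higher by the rule and 21 falling and 3 rising in the test. C1qb and C1qc are subunits of C1q made mainly by macrophages. C1qb was at 0 and 0.101 CPM in the fractions against 10.9 and 14.4 CPM in QSC. C1qc was at 0 and 0.0338 CPM against 5.53 and 7.91 CPM. Tfpi2, an inhibitor of coagulation proteases, was at 0.965 and 0.844 CPM in the fractions against 30.8 and 78.4 CPM in QSC. Thbd, thrombomodulin, went up, at 55.4 and 358 CPM in the fractions against 9.58 and 4.61 CPM in QSC, with a rise of 4.31 ± 0.59 (SE) on the log2 scale (edgeR adjusted p 5.42e-05). Without the Pax7-negative library the rule took 16 lower genes, and by library size alone 5. It took 2 as higher by library size alone, without mouse 1 and without the Pax7-positive library. The list summed to 924.5 and 2577 CPM in the fractions, 1422 CPM in ASC and 1793 CPM in MEF, against 5238 and 3319 CPM in QSC. Some members of these lists are markers of immune cells, and the 23 immune cell markers, 20 of them tested and 4 lower by the rule (7 without mouse 3), summed to 301.9 and 146.4 CPM in QSC and 22.1 and 50.8 CPM in the fractions. Ptprc (CD45), the common marker of white blood cells, was at 0.0322 and 0.0338 CPM in the fractions against 1.62 and 0.995 CPM in QSC, near the floor in all 4 libraries. The part of such cells in the values was not tested.

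**Figure D3:**
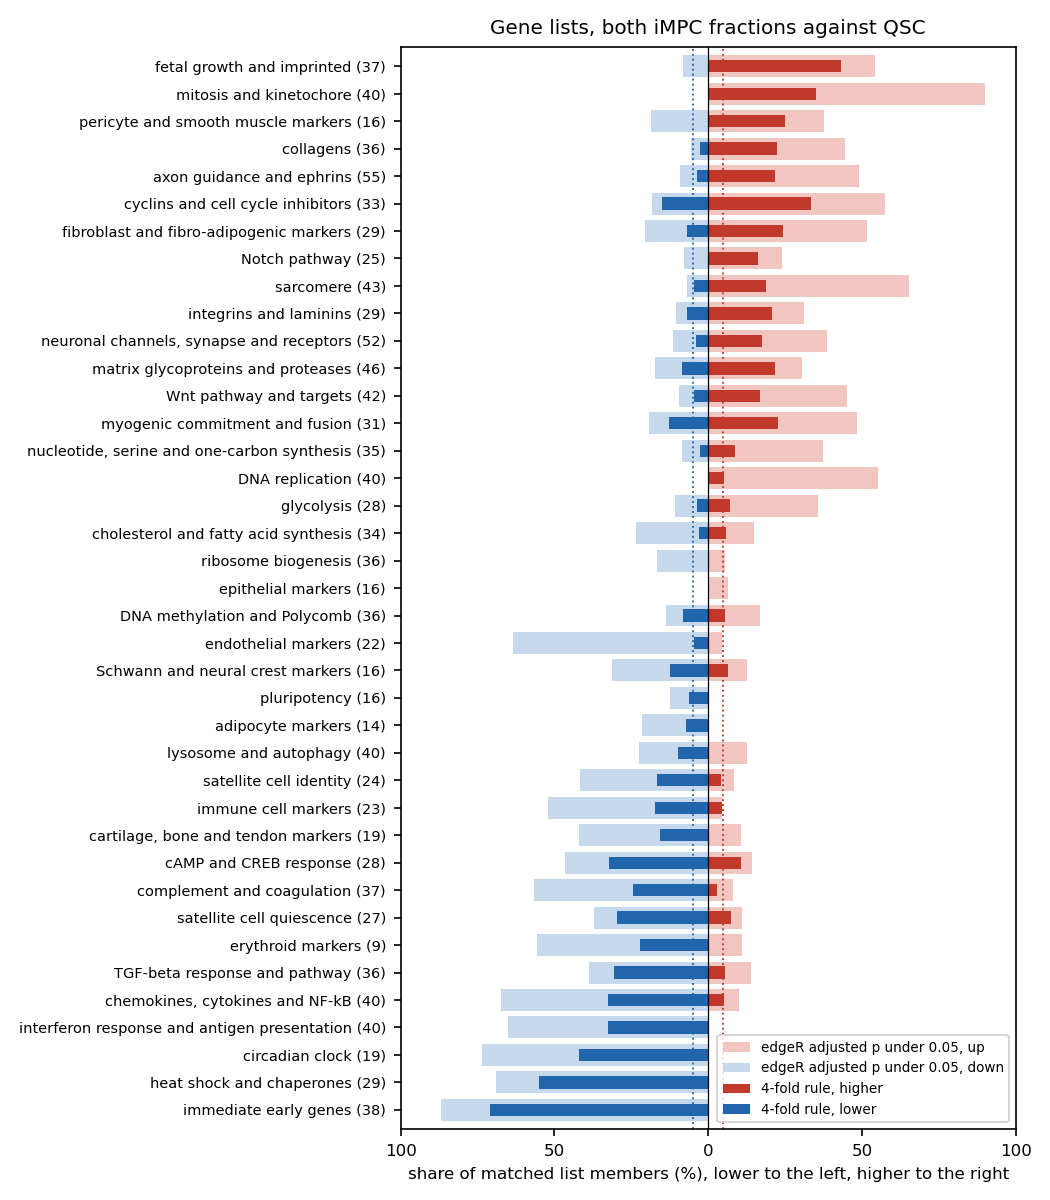
Share of the matched genes of each of 39 lists (number of genes in parentheses) that were higher (right) or lower (left) in iMPCs than in QSC, by the 4-fold rule (dark bars) and by edgeR's adjusted p under 0.05 (pale bars). Dotted lines mark the shares among all genes tested, 4.9% and 4.91%; the immediate early, heat shock and clock lists lie far to the left and the fetal growth and mitosis lists to the right.

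RepSox blocks the receptor through which TGF-beta acts. Of 36 genes of the TGF-beta and BMP pathways 11 were lower and 2 higher by the rule, and 14 fell and 5 rose in the test; the median of -0.56 turned to 0.13 by library size alone. Pmepa1, a feedback inhibitor and common target of TGF-beta, was at 6.47 and 24.3 CPM in the fractions against 1733 and 1499.7 CPM in QSC and fell by 7.01 ± 0.69 (SE) on the log2 scale (edgeR adjusted p 3.53e-06). It was at 194 CPM in ASC and 226 CPM in MEF. Ctgf, a matrix protein induced by TGF-beta and YAP, chosen after its values were seen, was at 4.44 and 28.4 CPM in the fractions against 547 and 388 CPM in QSC. Nog, an antagonist of BMPs, went up, at 46.5 and 9.63 CPM in the fractions against 0.143 and 0.181 CPM in QSC, and rose by 6.98 ± 0.80 (SE) (edgeR adjusted p 1.25e-05). Ltbp2, a binding partner of fibrillin in the matrix, was at 10.3 and 18.9 CPM in the fractions against 0.811 and 1.13 CPM in QSC. By the rule 5 genes of this list were higher without the Pax7-positive library. In all, 13 of its genes were at least 4-fold higher in the Pax7-negative than in the Pax7-positive fraction.

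Inhibition of GSK3 is known to stabilise beta-catenin and to switch on targets such as Axin2, Lgr5, Nkd1 and Lef1. Of 42 genes of the Wnt pathway 7 were higher and 2 lower by the rule, and 19 rose and 4 fell in the test, with a median of 1.85. Lgr5, a receptor of R-spondins and Wnt target, was at 61 and 15.5 CPM in the fractions against 0.906 and 1.13 CPM in QSC and rose by 4.91 ± 0.72 (SE) on the log2 scale (edgeR adjusted p 9.23e-05). Nkd1, a feedback inhibitor, was at 22.8 and 27.5 CPM in the fractions against 0.954 and 1.81 CPM in QSC and rose by 4.17 ± 0.68 (SE) (edgeR adjusted p 2.59e-04). Lef1, a DNA-binding partner of beta-catenin, was at 8.33 and 11.5 CPM in the fractions against 0.143 and 0.0452 CPM in QSC. Wnt5a, a ligand of the noncanonical branch, was at 17 and 69.4 CPM in the fractions against 0.143 and 1.31 CPM in QSC. Axin2, the most used target gene, did not pass the test. The 2 lower genes, Myc and Bmp4, stand in other lists as well. Without the Pax7-positive library 18 genes were higher by the rule. The part of the inhibitors in these values was not tested.

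The Notch list of 25 genes had 4 higher and none lower by the rule (2 lower without mouse 3, and 1 without mouse 1 or without the Pax7-negative library), 6 rising and 2 falling in the test, and a median of -0.53 that turned to 0.11 by library size alone. Dner, a noncanonical ligand, had no QSC read and 9.75 and 16.8 CPM in the fractions, at least 189-fold higher. Jag2, a canonical ligand, was at 46 and 27.4 CPM in the fractions against 4.48 and 2.4 CPM in QSC. Lfng, a glycosyltransferase that tunes Notch receptors, was at 29 and 5.13 CPM in the fractions against 0.429 and 0.271 CPM in QSC. The receptors Notch1, Notch2 and Notch3 and the targets Hes1, Hey1 and Heyl were not called in either direction.

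Of 36 collagens, 8 were higher and 1 lower by the rule and 16 rose and 2 fell in the test. Col18a1, the source of endostatin, was at 1406 and 1782 CPM in the fractions against 45.7 and 27.7 CPM in QSC and rose by 5.43 ± 0.68 (SE) on the log2 scale (edgeR adjusted p 2.31e-05). Col13a1, a transmembrane collagen of the neuromuscular junction, was at 65.6 and 40.3 CPM in the fractions against 0.524 and 0.0452 CPM in QSC. Col6a6, a beaded-filament collagen, was at 30.3 and 8.44 CPM in the fractions against 0.191 and 0.226 CPM in QSC. Col27a1, a fibril collagen of cartilage, was at 0.483 and 0.777 CPM in the fractions against 11.3 and 11.2 CPM in QSC and was the 1 that was lower. Col1a1, the main fibrillar collagen of fibroblasts, was at 66.5 and 1377 CPM in the fractions against 31.2 and 15.6 CPM in QSC and 8924 CPM in MEF. It missed the rule, since the Pax7-positive fraction was close to mouse 1, and its call upward (edgeR adjusted p 7.95e-04) was lost without the Pax7-negative library (adjusted p 0.143). By the rule 16 collagens were higher without the Pax7-positive library, and 2 were lower without mouse 1.

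Other matrix genes, 46 in number, split into 10 higher and 4 lower by the rule. The counts were 16 higher without the Pax7-positive library, 9 lower without the Pax7-negative library and 1 lower by library size alone. Fn1, fibronectin, was at 215 and 667 CPM in the fractions against 10.5 and 8.18 CPM in QSC and rose by 5.34 ± 0.65 (SE) on the log2 scale (edgeR adjusted p 2.04e-05). Mmp9, a gelatinase, was at 167 and 629 CPM in the fractions against 1.95 and 3.89 CPM in QSC, with 2.33 CPM in ASC and 2.2 CPM in MEF, so the other 4 libraries had at most 3.89 CPM. Mmp15, a membrane-bound protease, was at 105 and 48.5 CPM in the fractions against 0.811 and 0.769 CPM in QSC. Fbn2, the fetal fibrillin, was at 16.1 and 27 CPM in the fractions against 0.143 and 0.543 CPM in QSC. The lower genes were Tnxb, an anti-adhesive glycoprotein, and the small leucine-rich proteoglycans Ogn, Fmod and Aspn. Ogn was at 8.49 and 34.4 CPM in the fractions against 229 and 298 CPM in QSC, and Tnxb had no read in the Pax7-positive fraction, 1.93 CPM in the Pax7-negative and 38.4 and 122 CPM in QSC.

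Receptors and anchors for the matrix also differed. Of 29 integrins and laminins 6 were higher and 2 lower by the rule, with 10 higher when the Pax7-positive library was left out. Itga6 binds laminin and Itga4 fibronectin. Itga6 was at 304 and 213 CPM in the fractions against 10.9 and 4.7 CPM in QSC. Itga4 was at 55.1 and 22.9 CPM against 0.238 and 0.0452 CPM. Itga6 rose by 5.03 ± 0.62 (SE) on the log2 scale (edgeR adjusted p 2.16e-05). Itgb6, a subunit that activates latent TGF-beta, was at 19.4 and 25.3 CPM in the fractions against 1.05 and 0.317 CPM in QSC. Lamb1, a laminin chain, was at 224 and 331 CPM in the fractions against 17.6 and 4.07 CPM in QSC. Lama3, a laminin chain of epithelial basement membranes, was lower, at 0.0965 and 0 CPM in the fractions against 18.8 and 24.4 CPM in QSC, a ratio of QSC to iMPCs of 438 (95% counting interval 149 to 2128).

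Guidance molecules of axons and vessels formed a further group. Of 55 genes, 54 of them tested, 12 were higher and 2 lower by the rule and 27 rose and 5 fell in the test, with a median of 1.73. The rule took 18 without mouse 1 and 24 without the Pax7-positive library as higher, and 4 as lower without mouse 3. The list summed to 1983 and 2122 CPM in the fractions against 750.9 and 775.8 CPM in QSC. Its sums in ASC (2439 CPM) and MEF (2823 CPM) were above both fractions. Epha3, an ephrin receptor, was at 35.4 and 25.8 CPM in the fractions against 0.572 and 0.769 CPM in QSC and rose by 5.48 ± 0.69 (SE) on the log2 scale (edgeR adjusted p 2.61e-05). Sema6b, a membrane semaphorin, was at 101 and 70.1 CPM in the fractions against 5.2 and 0.678 CPM in QSC. Robo2, a receptor of Slit proteins, was at 9.2 and 8.68 CPM in the fractions against 0 and 0.407 CPM in QSC. Efna1, an ephrin of vessels, was at 3.09 and 3.07 CPM in the fractions against 32.7 and 28.5 CPM in QSC and was 1 of the 2 that were lower, with Sema4a at 0.837 and 1.08 CPM in the fractions against 6.29 and 6.92 CPM in QSC.

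Of 52 neuronal genes, 50 of them tested, 9 were higher and 2 lower by the rule, with 17 higher when the Pax7-positive library was left out. The list summed to 901.1 and 749 CPM in the fractions against 579.4 and 610.7 CPM in QSC. Its sum was 2204 CPM in ASC, above both fractions, and 479 CPM in MEF. Beside Scn3b and Htr1b, Gap43, a protein of growth cones that is also found in muscle precursors, was at 16.5 and 64.3 CPM in the fractions against 0.143 and 0.0452 CPM in QSC and had 4 QSC reads in all. Kcnc1, a potassium channel, was at 28.7 and 7.4 CPM in the fractions against 0.143 and 0 CPM in QSC, a ratio of 263 (95% counting interval 89.8 to 1278). Gabra3, a GABA receptor subunit and 1 of the lower genes, was at 0.804 and 1.15 CPM in the fractions against 10.3 and 11.5 CPM in QSC. It lost its edgeR call by library size alone (adjusted p 0.058) and without the Pax7-positive library (adjusted p 0.0652).

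Metabolic lists moved less by the rule. Over all genes tested 4.9% were higher and 4.91% lower by the rule, and 15.4% rose and 14.6% fell in the test. The rule's counts in both lists of this paragraph were near those shares. Of 34 genes of cholesterol and fatty acid synthesis 2 were higher and 1 lower by the rule, 5 rose and 8 fell in the test, and the median was 0.29 against mouse 1 and -0.87 against mouse 3. The rule took 4 as lower without mouse 1 and 3 without the Pax7-negative library, and 4 higher and 2 lower without mouse 3. By library size alone 5 were higher. Scd2, a fatty acid desaturase of fetal tissue, was at 492 and 576 CPM in the fractions against 34.6 and 63.3 CPM in QSC and rose by 3.44 ± 0.58 (SE) on the log2 scale (edgeR adjusted p 3.33e-04). Fads2, another desaturase, was at 27.8 and 33.8 CPM in the fractions against 6.01 and 4.52 CPM in QSC. Of 35 genes of nucleotide, serine and one-carbon synthesis 3 were higher and 1 lower by the rule and 13 rose and 3 fell in the test. The share that rose was thus above that of all genes tested, and the median was 1.12. With mouse 1 or mouse 3 left out 5 were higher, without the Pax7-negative library 7, and by library size alone 6. There were 2 lower genes without the Pax7-positive library. Asns, asparagine synthetase, was at 123 and 121 CPM in the fractions against 16 and 11.1 CPM in QSC. Slc3a2, the heavy chain of amino acid transporters, was at 161 and 167 CPM in the fractions against 1791 and 1429 CPM in QSC.

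In glycolysis, 2 of 28 genes were higher and 1 lower by the rule, near the 4.9% and 4.91% of all genes tested. In the test 10 rose and 3 fell, against 15.4% and 14.6% of all genes tested, so a larger share rose than over all genes. The rule took 6 as higher without the Pax7-positive library, 4 without mouse 1 (then with 2 lower) and 5 by library size alone. Ldhb, the lactate dehydrogenase of oxidative tissue, was at 427 and 449 CPM in the fractions against 38.5 and 33.9 CPM in QSC and rose by 3.60 ± 0.54 (SE) on the log2 scale (edgeR adjusted p 1.16e-04). The kinases that switch off pyruvate dehydrogenase went opposite ways, with Pdk1 at 25.5 and 135 CPM in the fractions against 3.91 and 4.52 CPM in QSC and Pdk4 at 12 and 9.73 CPM in the fractions against 101 and 125 CPM in QSC. Pdk4 fell by 3.39 ± 0.54 (SE) (edgeR adjusted p 1.87e-04). Of 36 ribosome biogenesis genes none passed the rule in either direction, and 2 rose and 6 fell in the test. Leaving out 1 library gave 0 to 2 higher and 0 to 3 lower genes. Ncl, nucleolin, was at 1052 and 543 CPM in the fractions against 1783 and 632 CPM in QSC. Npm1, nucleophosmin, was at 689.7 and 428 CPM in the fractions against 670.2 and 522 CPM in QSC, with overlapping groups.

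Of 40 lysosome and autophagy genes 4 were lower and none higher by the rule, and 5 rose and 9 fell in the test. Sqstm1, the autophagy receptor p62, was at 247 and 411 CPM in the fractions against 9022 and 5975 CPM in QSC and fell by 4.56 ± 0.74 (SE) on the log2 scale (edgeR adjusted p 2.46e-04). Gabarapl1 and Map1lc3a are proteins of the autophagosome membrane. Gabarapl1 was at 23.3 and 54.4 CPM in the fractions against 596 and 598 CPM in QSC. Map1lc3a was at 65 and 113 CPM against 558 and 642 CPM. Klf15, a glucocorticoid target in muscle, was at 0.869 and 1.38 CPM in the fractions against 11.4 and 15.7 CPM in QSC. The genes of lysosomal enzymes in the list did not pass the rule. Without the Pax7-negative library 8 genes were lower, and 5 were higher without the Pax7-positive library and 2 without mouse 1.

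With shares of 4.9% and 4.91% over all genes tested, 2 of 36 genes of DNA methylation and Polycomb were higher and 3 lower by the rule. Without mouse 1 these were 4 and 5, and 5 were higher without the Pax7-negative library and 6 by library size alone. Cbx2 and Cbx7, chromodomain proteins that take the same place in Polycomb complexes, went opposite ways. Cbx2 was at 31.8 and 24.7 CPM in the fractions against 0.763 and 0.407 CPM in QSC and rose by 5.57 ± 0.74 (SE) on the log2 scale (edgeR adjusted p 4.05e-05). Cbx7 was at 3.02 and 1.72 CPM in the fractions against 17 and 62.3 CPM in QSC and fell by 4.12 ± 0.75 (SE) (edgeR adjusted p 6.68e-04). Kdm6b, which removes the Polycomb mark, was at 9.85 and 11.1 CPM in the fractions against 281 and 324 CPM in QSC and fell by 4.86 ± 0.57 (SE) (edgeR adjusted p 1.45e-05). Tet2, which oxidises methylated cytosine, was at 6.4 and 9.02 CPM in the fractions against 77 and 81.4 CPM in QSC. The core subunits Ezh2, Eed and Suz12 were not called.

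Markers of other cell types were read as a check on both sides. The 22 endothelial markers summed to 750.3 and 145 CPM in QSC and 61.7 and 205.4 CPM in the fractions, so the groups overlapped. In mouse 1, 17 of them exceeded mouse 3 by 4-fold or more. The rule took 1 marker as lower in iMPCs, 14 without mouse 3 and 4 without the Pax7-negative library. Pecam1, the defining surface marker, was at 0.676 and 4.76 CPM in the fractions against 25.9 and 3.03 CPM in QSC. Red blood cell markers, 6 of 9 tested, summed to 1353 and 47.98 CPM in QSC and 208.6 and 88.2 CPM in the fractions. By this sum the groups overlapped as well. In edgeR's test 1 of these markers rose and 5 fell. Hbb-bs was at 424 and 8.82 CPM in QSC and 0 and 0.473 CPM in the fractions. Hbb-bs and its near-identical copy Hbb-bt are uncertain as single genes. The rule took 2 of these markers as lower, and 5 without mouse 3. Lyz2, a lysozyme of macrophages and granulocytes, was at 0 and 1.49 CPM in the fractions against 182 and 54.4 CPM in QSC. Cd68 was at 0.933 and 0.777 CPM in the fractions against 13.5 and 13.8 CPM in QSC. Laptm5, a lysosomal protein best known from blood cells, went the other way, at 18.6 and 36.3 CPM in the fractions against 3.96 and 3.03 CPM in QSC, with 19.3 CPM in ASC.

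Markers of pericytes and fibroblasts went both ways, and many were higher in the Pax7-negative than in the Pax7-positive fraction. Of 16 pericyte and smooth muscle markers 4 were higher and none lower by the rule, and 6 rose and 3 fell in edgeR's test. Without the Pax7-positive library 7 were higher and 1 lower, and without the Pax7-negative library 2 were lower. The median difference was 0.13 for the Pax7-positive and 2.12 for the Pax7-negative fraction, and 8 were at least 4-fold higher in the Pax7-negative than in the Pax7-positive fraction. Pdgfrb, a receptor of pericytes and fibroblasts, was at 103 and 388 CPM in the fractions against 6.77 and 13.8 CPM in QSC and rose by 4.28 ± 0.59 (SE) on the log2 scale (edgeR adjusted p 5.27e-05), with 173 CPM in MEF. Kcnj8 and Ndufa4l2 mark brain pericytes. Kcnj8 was at 19.98 and 100.003 CPM in the fractions against 3 and 3.62 CPM in QSC. Ndufa4l2 was at 22.2 and 203 CPM against 3 and 2.44 CPM, and both were at or below 1.08 CPM in ASC and MEF. Of 29 fibroblast and fibro-adipogenic markers 7 were higher and 2 lower by the rule, and 16 were higher without the Pax7-positive library. In edgeR's test 15 rose and 6 fell. Cd248 was at 40.7 and 205 CPM in the fractions against 2.15 and 1.67 CPM in QSC. Thy1 was at 10.1 and 61.5 CPM in the fractions against 0.954 and 1.13 CPM in QSC. Pdgfra, the defining receptor, chosen after its values were seen, was at 2.22 and 105 CPM in the fractions against 0.715 and 0.814 CPM in QSC. Its call upward (edgeR adjusted p 7.67e-05) was lost without the Pax7-negative library (adjusted p 0.143). Of the 2 lower genes Dpt, dermatopontin, was at 0.0643 and 1.62 CPM in the fractions against 150.04 and 83.4 CPM in QSC. Gsn, gelsolin, was at 161 and 222 CPM in the fractions against 3285 and 3410.1 CPM in QSC. The list summed to 2596 and 9145 CPM in the fractions, 4645 and 4248 CPM in QSC and 17909 CPM in MEF. By this sum the Pax7-positive fraction lay below both mice and the Pax7-negative fraction above them. Gsn alone made up most of the QSC sums, so they say little about the other markers. The median difference of the list was 0.51 for the Pax7-positive and 2.55 for the Pax7-negative fraction.

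The remaining marker lists held few genes that moved. Of 16 Schwann cell and neural crest markers, 12 of them tested, 1 was higher (3 without the Pax7-positive library) and 2 lower by the rule. Erbb3, the neuregulin receptor, was at 26.4 and 23.2 CPM in the fractions against 0.858 and 1.67 CPM in QSC, with 169 CPM in ASC. The myelin gene Mbp was at 0.965 and 0.979 CPM in the fractions against 56.6 and 17.6 CPM in QSC. Of 19 cartilage, bone and tendon markers, 18 of them tested, 3 were lower (5 without mouse 1 and 6 without the Pax7-negative library), among them Sox9 at 83.8 and 59.1 CPM in the fractions against 374 and 379 CPM in QSC. Of 14 adipocyte markers, 8 of them tested, Pnpla2, a triglyceride lipase, was lower, at 12.8 and 16.9 CPM in the fractions against 176 and 208 CPM in QSC. Leaving out any 1 library left 2 adipocyte markers lower. No epithelial marker passed the rule, 11 of 16 tested, but 4 were higher without the Pax7-positive library. The same number exceeded the Pax7-positive level by 4-fold or more in the Pax7-negative fraction. Krt19, a keratin, was at 0.579 and 33.4 CPM in the fractions against 0.0477 and 0.317 CPM in QSC, and its call upward (edgeR adjusted p 4.75e-04) was lost without the Pax7-negative library (adjusted p 0.219). Of 16 pluripotency genes 7 reached the test and Klf4, which is also an immediate early gene, was lower, at 5.24 and 7.46 CPM in the fractions against 139 and 291 CPM in QSC.

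**Figure D4:**
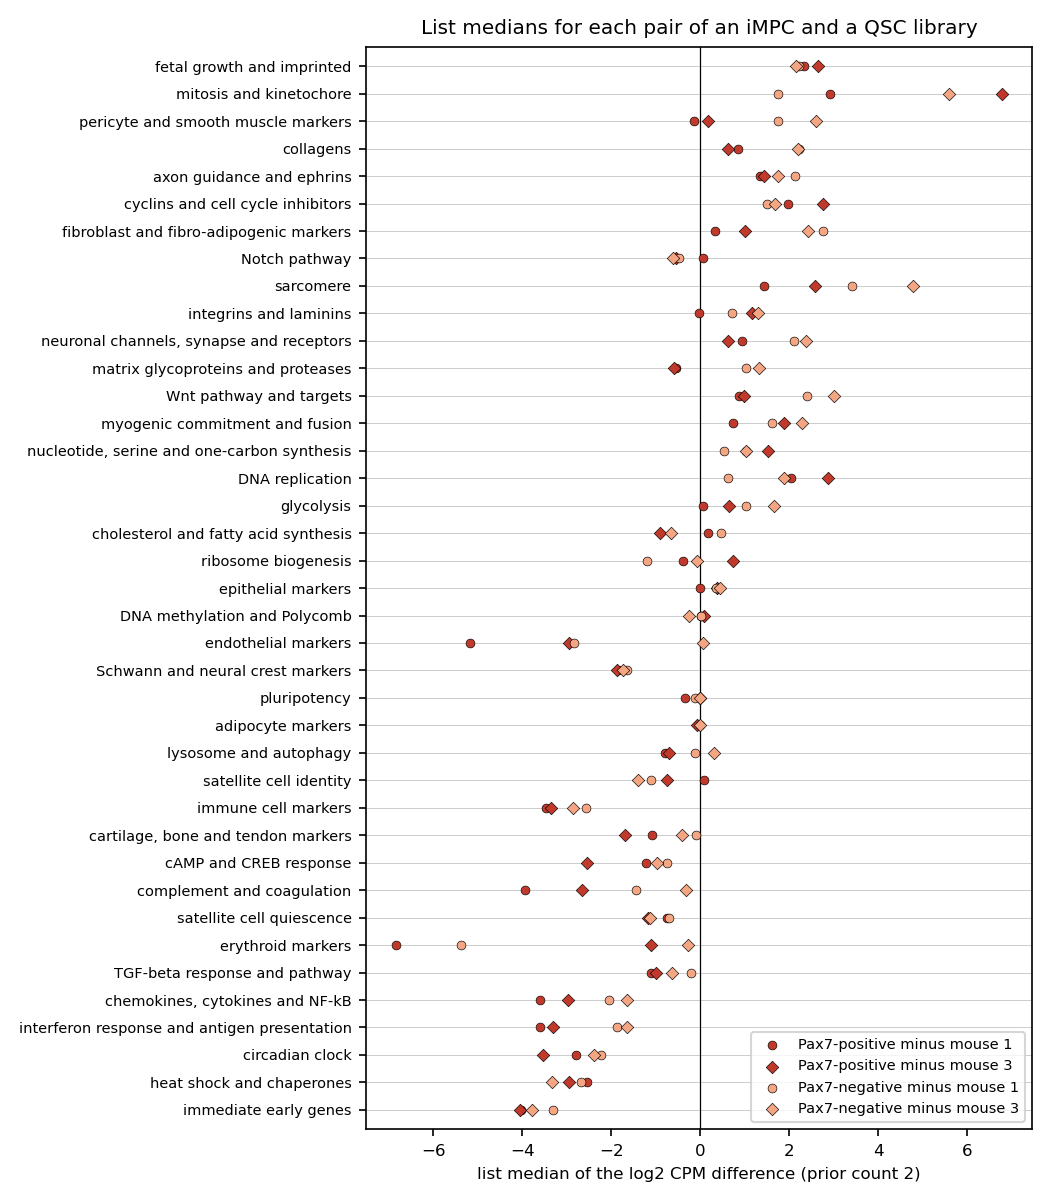
Median log2 CPM difference of each of 39 gene lists for each of the 4 pairs of an iMPC fraction and a QSC mouse; circles are differences from mouse 1, diamonds from mouse 3, dark red the Pax7-positive and pale red the Pax7-negative fraction. The 4 points lie close together for immediate early, heat shock and fetal growth genes, and spread by mouse for mitosis, endothelial and red blood cell genes and by fraction for sarcomere and complement genes.

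No gene was 4-fold higher than both mice in 1 fraction and 4-fold lower in the other. This count asked for at least 5 CPM in the higher fraction and in both mice. Such a gene would need fractions well over 4-fold apart, so its absence says little about their agreement. The fractions did differ in level. Of the higher genes 48 (5.72%) and of the lower genes 114 (13.6%) were at least 4-fold apart between the fractions, whatever their CPM, against 9.97% of all genes tested. Among the higher genes 44 of the 48, and among the lower genes all 114, were higher in the Pax7-negative fraction. With the 5 CPM minimum, 736 of all genes tested (4.3%) were at least 4-fold higher in that fraction and 23 (0.134%) in the Pax7-positive. The median size of the difference between the fractions was 0.49 for higher, 0.57 for lower and 0.50 for all genes on the log2 scale. Each fraction had 1 library, so these differences have no replicate check.

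The 4 higher genes that were at least 4-fold higher in the Pax7-positive fraction included Ccne1 and Lfng, given above. Nog (46.5 and 9.63 CPM) was 1 of them, and Sec14l2, a lipid transfer protein, was at 30.5 and 7.16 CPM in the fractions against 0.668 and 0.724 CPM in QSC. Most apart in the other direction was Crabp1, a retinoic acid binding protein, at 13.8 and 653 CPM in the fractions against 0.524 and 0.0452 CPM in QSC. Prl2c2 and Prl2c3 are near-identical proliferin genes and therefore uncertain one by one. Prl2c2 was at 5.12 and 207 CPM in the fractions against 0 and 0.0452 CPM in QSC. Prl2c3 was at 7.17 and 257 CPM against 0.477 and 0 CPM. Among lower genes Bmp2 was at 0.418 and 13 CPM in the fractions against 62.1 and 80.8 CPM in QSC and S100a8, a granulocyte protein, at 0 and 3.31 CPM in the fractions against 19.9 and 21.9 CPM in QSC.

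**Figure D5:**
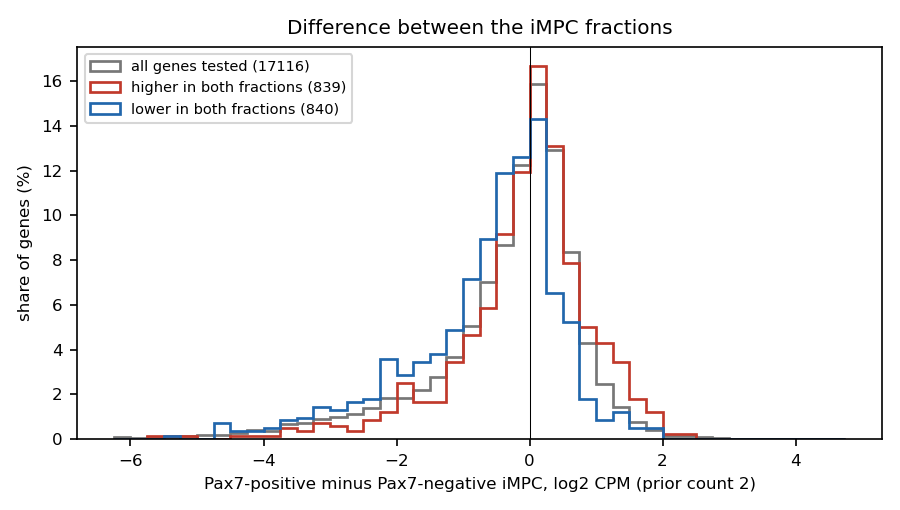
Distribution of the log2 CPM difference between the Pax7-positive and Pax7-negative iMPC fractions for all 17116 genes tested (grey), the 839 higher (red) and the 840 lower genes (blue), as a share of each set. All 3 distributions peak near 0, and the blue one reaches further to the left, where the Pax7-negative fraction is higher.

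By RPKM, the authors' measure scaled by gene length and library size, the most abundant genes among the higher set included Cdkn1c, Igf2, Actc1, H19, Mest, Myog and Gas1, and among the lower set Ubb, Malat1, Hspa8, Fth1 and Eif1 beside Hspa1a and Hspa1b. Malat1, a nuclear noncoding RNA, was at 365 and 527 CPM in the fractions against 10217 and 15330.1 CPM in QSC and fell by 4.86 ± 0.81 (SE) on the log2 scale (edgeR adjusted p 2.99e-04). Fth1, the ferritin heavy chain, was at 678 and 1266 CPM in the fractions against 7579 and 5713 CPM in QSC, and its call (edgeR adjusted p 0.00513) was lost without the Pax7-positive library (adjusted p 0.0742). Eif1, a translation initiation factor, was at 619.8 and 649.9 CPM in the fractions against 5319.7 and 6784 CPM in QSC. The ASC and MEF libraries lay closer to the fractions than to QSC in both RNAs named next, with Eif1 at 634 and 531 CPM and Malat1 at 585 and 1957 CPM.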

How the data were processed

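Poly(A)-selected RNA was sequenced with a strand-marking kit from 6 mouse cell samples, per the labels' protocols. The authors deposited, for each sample, unnormalized counts of reads over 38924 Ensembl genes. RPKM values deposited by the authors paired gene identifiers with symbols and served for names and the ranking of abundant genes. The submitters' processing notes name HTSeq 0.6.0, STAR 2.3.0, edgeR and Picard 1.100, and the mm9 build. The gene annotation and any strand setting of the counting were not given in the sources used here, so overlapping, antisense and near-identical genes are uncertain.

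The tools were edgeR 4.0.16, limma 3.58.1 and DESeq2 1.42.0 in R 4.3.3. edgeR's expression filter by group kept 17116 genes, TMM was computed over 6 libraries, and 1 coefficient per group was fitted, with the mean of the iMPC coefficients against QSC as the contrast. The QSC mice gave 1 residual degree of freedom, beside 16.3 prior ones, and the biological coefficient of variation was 0.476. The scripts were tested on simulated counts. Totals ranged from 20859611 to 29279686 counts, and all ratios with intervals cover counting error only. Where a side had no read, a lower bound was set against 3 counts summed over that side.

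The 39 gene lists (1220 entries), their members and the rules were chosen with earlier results of these data known. Genes were named by rule: the 12 largest smallest differences each way, up to 4 per list and direction that met the size rule or else the 2 most abundant, 20 fixed genes, the 5 most different between fractions each way, the 8 most abundant each way by RPKM, and 1 gene on either side of the threshold. Promoter windows came from RefSeq on GRCm38.p6 by symbol, for 11517 of the tested genes; other gene coordinates are not printed, since the files use another build. Alternatives covered the scaling, the prior count, the thresholds, the filter, DESeq2 and leaving out each library. Some genes that the naming rule took are not reported here.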

Additional observations from a re-analysis of the deposited data

How the results depend on the processing

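By library size alone the 4-fold rule took 1693 higher and 498 lower genes and edgeR called 3216 up and 1063 down, against 764 and 910 and against 2333 and 2577 with median-ratio size factors. At 8-fold in every pair the rule took 354 higher and 438 lower genes, and at 2-fold 2160 and 1789. Leaving out each of the 4 libraries in turn gave 1116 to 1437 higher and 962 to 1310 lower genes, and edgeR, which cannot be fitted without a QSC mouse since no residual degree of freedom is left, called 1917 to 1968 up and 1126 to 1686 down without 1 fraction; an arm with 1 sample was assumed to vary like the others. A minimum of 1 CPM gave 1137 and 1193, a prior count of 0.5 gave 853 and 842, and DESeq2 called 2451 up and 2567 down. Of 236 named genes, none of which changed direction in DESeq2, 6 lost their call there; 17 lost it by library size alone, 16 without the Pax7-positive and 10 without the Pax7-negative library, and 1, Krt18, was called without the Pax7-positive library. Log2 differences turned sign for genes that edgeR did not call: by library size alone Ncl (0.038), Npm1 (0.57) and Des (0.17), and with 1 fraction left out Itga7 (-0.30 to 1.104), Npm1 (-0.48 to 0.21) and Krt18 (-0.44 to 5.32). The cause of these changes was not tested. No paired analysis was possible because the QSC replicates are numbered 1 and 3 and the iMPC fractions have 1 library each, so the groups share fewer than 2 numbers.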
